A study of Mus musculus with 6 samples.

Results

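The G1 cyclins and the inhibitors of cyclin-dependent kinases (CDKs) are described here as 10 genes: the D-type cyclins Ccnd1, Ccnd2 and Ccnd3, the E-type cyclins Ccne1 and Ccne2, the Cip/Kip inhibitors Cdkn1a and Cdkn1b, and the INK4 inhibitors Cdkn2a, Cdkn2b and Cdkn2c. The genes were chosen by symbol, through the GENCODE M21 annotation of their identifiers, and the rule uses no measured value, although earlier results of these data were known when it was set. All 10 were found among the 54752 genes of the deposited tables, and all 10 were among the 14726 genes with enough reads to be tested. Total RNA from cultured 3T3-L1 cells, a cloned subline of mouse embryo fibroblasts that can turn into fat cells, was sequenced in 6 libraries. The labels name 3 libraries as preadipocytes and 3 as adipocytes, and give for all 6 the strain C57BL/6J, embryo as the tissue, no treatment, and 1 shared growth entry that lists calf serum medium, DMI and foetal bovine serum. The source name reads adipocyte for both groups, so groups were read from titles and from the cell type field, and the day of harvest is not given in the sources used here. No label states whether replicates came from separate cultures, so p-values cover only the spread among these 6 libraries, which may be technical.

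D-type cyclins bind the kinases CDK4 and CDK6 when growth factors are present, and E-type cyclins bind CDK2 later in G1. Together these kinases phosphorylate the retinoblastoma family of pocket proteins, which releases E2F transcription factors and lets a cell enter S phase. INK4 proteins bind CDK4 and CDK6 and keep D-type cyclins away, whereas Cip/Kip proteins bind cyclin-CDK complexes and chiefly block those with CDK2. Cultured 3T3-L1 preadipocytes arrest at confluence, divide again when induced, and leave the cycle as they become fat cells.

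Adipocyte and preadipocyte markers separated the libraries as labelled. All 8 adipocyte markers were higher in adipocytes, with a summed level of 54.85 to 55.59 TPM (the deposited transcript level, corrected for gene length and library size) in preadipocytes and 24945 to 30045 TPM in adipocytes, led by the fatty acid carrier Fabp4. All 8 fibroblast and preadipocyte markers were lower, at 13896 to 15756 TPM against 829.57 to 1050.5 TPM, led by the collagen gene Col1a2. Macrophage markers summed to at most 2.30 TPM, with Adgre1 and Itgam at 0 and Cd68 the most abundant; endothelial markers summed to at most 1.24 TPM, led by Vwf, and epithelial markers to at most 1.37 TPM, led by Krt18. Summed skeletal muscle markers went from 1.40 to 2.05 TPM in preadipocytes to 49.45 to 56.99 TPM in adipocytes chiefly through Des, while Myod1, Myog, Ckm and Myh3 were at 0 in every library. Both muscle markers that could be tested were higher in adipocytes. Summed bone and cartilage markers went from 36.92 to 46.48 TPM to 2.27 to 2.70 TPM, chiefly through Sox9. Of the 2 bone and cartilage markers tested, 1 was lower and 1 was higher in adipocytes. The libraries held 22496486 to 26314076 expected counts, and adipocyte library 2 had 0.965% of them in ribosomal RNA genes against 0.0775% to 0.224% in the others. The part of these markers and of ribosomal RNA in the results below was not tested.

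Promoter sequences are shown for the INK4 genes, a family whose genes moved in opposite directions, and for the Cip/Kip gene Cdkn1a, a well-known p53 target. The sequences come from RefSeq on GRCm38.p6 and hold up to 250 bases before an annotated start, on the strand of the gene and without annotated exon bases. Of the 10 genes, 7 matched the promoter table, with 11 windows in all. Capitals mark motifs found by an exact search of both strands: the GC box GGGCGG, the cyclic AMP response element TGACGTCA, the cell cycle homology region TTTGAA, which reads as its reverse complement on the printed strand of Cdkn2b, and, in Cdkn1a, decamers of the p53 response element.
Cdkn2a-202, chr4:89294654-89294869, minus strand: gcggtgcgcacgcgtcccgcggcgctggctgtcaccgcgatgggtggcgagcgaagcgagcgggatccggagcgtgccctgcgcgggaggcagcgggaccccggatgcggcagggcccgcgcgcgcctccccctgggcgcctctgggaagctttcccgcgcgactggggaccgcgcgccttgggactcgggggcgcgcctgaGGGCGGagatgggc
Cdkn2a-201, chr4:89282193-89282442, minus strand: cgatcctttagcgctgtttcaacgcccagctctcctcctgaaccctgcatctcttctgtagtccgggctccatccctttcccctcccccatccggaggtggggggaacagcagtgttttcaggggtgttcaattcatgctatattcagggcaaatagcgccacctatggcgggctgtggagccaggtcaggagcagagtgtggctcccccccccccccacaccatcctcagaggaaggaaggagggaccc
Cdkn2b-201, chr4:89311040-89311282, minus strand: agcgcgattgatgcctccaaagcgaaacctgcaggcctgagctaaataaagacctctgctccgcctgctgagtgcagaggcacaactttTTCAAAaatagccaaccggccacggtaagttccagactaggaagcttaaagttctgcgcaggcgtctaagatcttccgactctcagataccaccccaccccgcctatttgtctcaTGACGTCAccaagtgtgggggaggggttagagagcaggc
Cdkn2c-201, chr4:109665373-109665609, minus strand: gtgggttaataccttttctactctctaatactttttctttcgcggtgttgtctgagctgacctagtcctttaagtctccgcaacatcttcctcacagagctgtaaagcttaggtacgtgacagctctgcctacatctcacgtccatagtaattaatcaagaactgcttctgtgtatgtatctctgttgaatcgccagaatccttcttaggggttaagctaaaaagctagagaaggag
Cdkn1a-202, chr17:29090729-29090975, plus strand: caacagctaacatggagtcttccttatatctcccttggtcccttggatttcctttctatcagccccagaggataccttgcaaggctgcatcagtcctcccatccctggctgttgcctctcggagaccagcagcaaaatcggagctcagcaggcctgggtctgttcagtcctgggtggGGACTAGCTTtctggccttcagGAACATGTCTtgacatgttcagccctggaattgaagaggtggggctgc
The first sequence precedes the distal first exon of Cdkn2a and the second the proximal one, which lie on chromosome 4 on the same strand as Cdkn2b. Of 32526 distinct windows of the full 250 bases, 33.0% held a GC box, 1.56% the cyclic AMP response element and 15.8% the cell cycle homology region. Printed sequences without their exon bases can be shorter than that. The full Cdkn2a-202 window held 2 GC boxes, of which the one not printed lies in annotated exon bases. The window nearest to Cdkn2c-202, which is not printed, held 3. That window precedes a RefSeq start 433 bases from the annotated start of Cdkn2c-202, and lies inside this transcript and not before it. At least 2 p53 decamers stood in 0.258% of windows, and this motif was searched for after the sequences had been seen. The window before the other Cdkn1a transcript, Cdkn1a-201, is not printed, and held 2 GC boxes and no p53 decamer. None of the 11 windows held either E2F motif searched, TTTCGCGC or TTTGGCGC, which stood in 0.258% and 0.421% of all windows. None held the E-box CACGTG, the AP-1 motif TGAGTCA or the TATA motif TATAAA, found in 6.04%, 4.46% and 12.3% of all windows. The forkhead motif GTAAACA, found in 3.17% of all windows, stood only before Ccnd3-204, and so in no window of Cdkn1a or Cdkn1b. A match is a description of the letters in these windows.

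Between the states, 5 of the 10 genes were higher in adipocytes and 4 were lower, by edgeR's quasi-likelihood F-test at a Benjamini-Hochberg adjusted p under 0.05 across all tested genes. Ccnd2, Ccne1, Ccne2, Cdkn1a and Cdkn2c rose, Ccnd1, Cdkn1b, Cdkn2a and Cdkn2b fell, and Ccnd3 did not pass the test. Over all 14726 tested genes, 73.5% passed it, 35.7% as higher and 37.9% as lower, so a passing call is what most genes show in this comparison. The median log2 fold change was 0.49 over the 10 genes and -0.06 over all tested genes. Directions were mixed within 3 of the 4 families: each of the D-type, Cip/Kip and INK4 groups held at least 1 gene that rose and 1 that fell, and both E-type cyclins rose. In bulk RNA such as this, fewer cells of a type and less RNA per cell cannot be told apart. The change was at least 2-fold as well for 7 of the 10 genes, all of the 9 but Ccne2 and Cdkn1a, where 41.2% of all tested genes met both criteria; Cdkn2a lay just inside that limit. Differences depend on how libraries are scaled: tests on log2(TPM + 1) called 3266 genes higher and 8328 lower, against 5252 and 5575 here, and moved the median of all genes by -0.48.

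**Figure D1:**
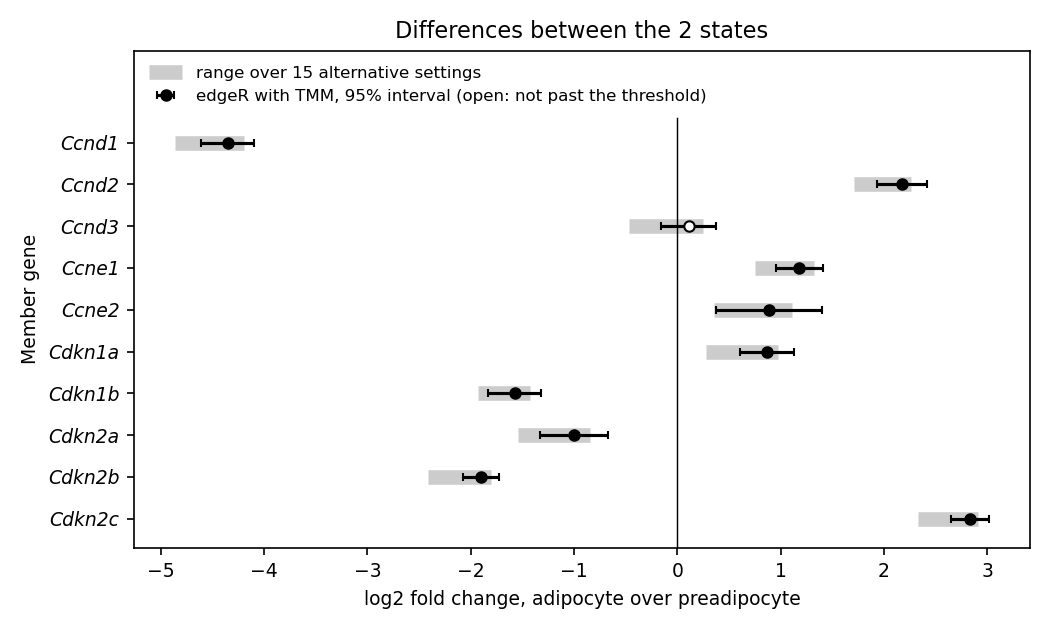
Log2 fold change of each of the 10 genes, adipocyte over preadipocyte, with the 95% interval from edgeR (points and bars) and the range over 15 alternative settings (grey bars). Ccnd1 lies farthest to the left at -4.35 and Cdkn2c farthest to the right at 2.83, and the open point of Ccnd3 and its grey range lie across 0.

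The D-type cyclins changed places. Ccnd1 encodes cyclin D1, the D-type cyclin most closely tied to growth factor signalling, and lies at chr7:144929931-144939925 (GRCm38, minus strand). Its normalised level, in counts scaled to library size (CPM, with TMM factors), was 255, 244 and 257 in preadipocyte libraries 1, 2 and 3 and 13.8, 12.6 and 10.5 in adipocyte libraries 1, 2 and 3. Every preadipocyte library was far above every adipocyte library. The mean fell from 251.8 ± 6.76 to 12.3 ± 1.70 CPM (SD, n = 3 each), a log2 fold change of -4.35 (SE 0.11, adjusted p = 5.22e-09, edgeR's quasi-likelihood test), or 20.5-fold. Ccnd1 ranked 756 among the 14726 tested genes by the size of its log2 fold change. Its exons share 1100 bases with LTO1 on the opposite strand, a gene with 326 to 577 expected counts per library; Ccnd1 itself had 242 to 320 expected counts in adipocyte libraries, and whether the counting used strand is not given in the sources used here.

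Ccnd2, which encodes cyclin D2 (chr6:127125162-127152193, minus strand), went the other way. It stood at 305, 366 and 365 CPM in preadipocytes and at 1407, 1642 and 1640 CPM in adipocytes, so the groups were far apart and the spread within each was small beside the gap. The mean rose from 345.6 ± 34.8 to 1563 ± 135 CPM (SD, n = 3 each), with a log2 fold change of 2.18 (SE 0.11, adjusted p = 1.73e-07, edgeR's quasi-likelihood test). The factor was 4.52 in CPM and 3.29 in TPM.

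Ccnd3 encodes cyclin D3, the D-type cyclin of many differentiating tissues, and lies at chr17:47505051-47599691 (plus strand). Its level was 173, 145 and 160 CPM in preadipocytes and 201, 162 and 153 CPM in adipocytes, and the groups overlapped. The log2 fold change was 0.11 (95% interval -0.16 to 0.38, adjusted p = 0.43, edgeR's quasi-likelihood test). In TPM the order was the reverse, with 183, 162 and 176 in preadipocytes and 143, 120 and 116 in adipocytes and no overlap. On the log2(TPM + 1) scale Ccnd3 was lower in adipocytes by limma, with a difference of -0.46 (adjusted p = 0.0023), which is close to the shift of -0.48 that this scale gave the median gene. The direction of Ccnd3 thus turns with the scaling. Its exons share 361 bases with Bysl on the opposite strand, a gene with 427 to 479 expected counts per preadipocyte library and 920 to 1129 per adipocyte library. The part of this overlap in the level of Ccnd3 was not tested.

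**Figure D2:**
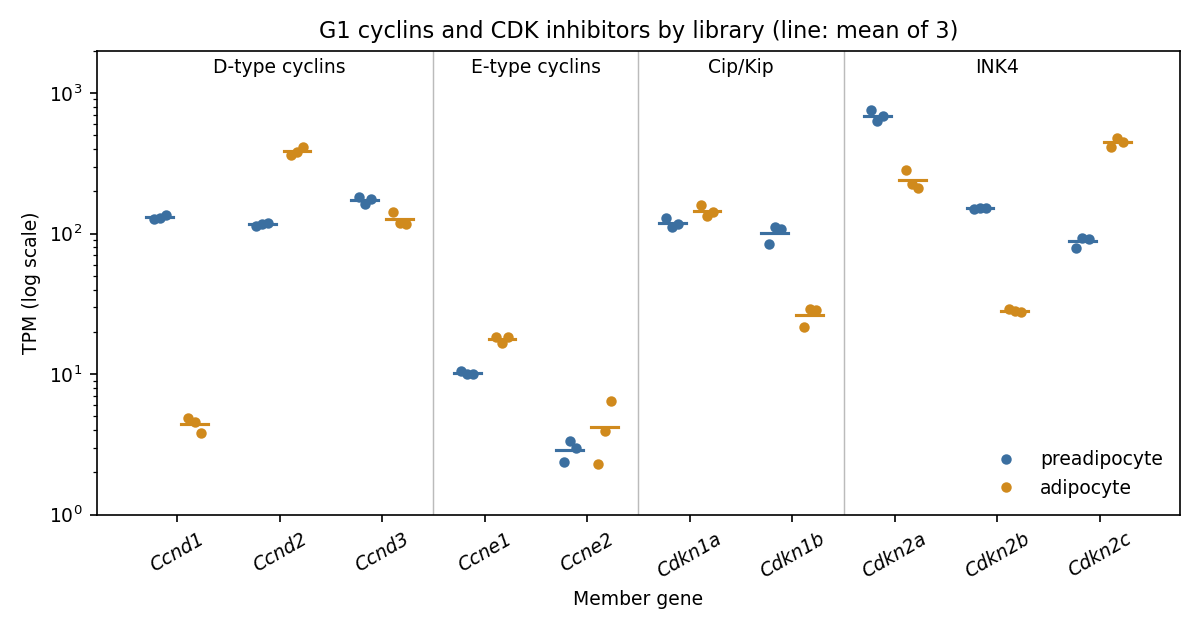
TPM of the 10 genes in each of the 6 libraries on a log axis, with blue points for preadipocyte libraries, orange points for adipocyte libraries and lines for the group means. Ccnd1 drops from 126.15 to 136.36 TPM to 3.83 to 4.85 TPM, Cdkn2c climbs from 79.53 to 93.21 TPM to 410.61 to 480.17 TPM, and the points of Ccne2 overlap between the groups.

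The E-type cyclins were the least abundant of the families. Ccne1 encodes cyclin E1, an activating partner of CDK2 (chr7:38097984-38107534, minus strand). Its level was 10.3, 9.16 and 9.47 CPM in preadipocytes and 23.6, 20.9 and 20.9 CPM in adipocytes, and all adipocyte libraries were above all preadipocyte libraries. The mean rose from 9.63 ± 0.562 to 21.8 ± 1.59 CPM (SD, n = 3 each), a log2 fold change of 1.18 (SE 0.10, adjusted p = 6.52e-06, edgeR's quasi-likelihood test), and on the TPM scale from 10.2 ± 0.336 to 17.9 ± 1.07.

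Ccne2 encodes the related cyclin E2 (chr4:11191351-11204779, plus strand). It stood at 3.37, 4.58 and 3.99 CPM in preadipocytes and 5.10, 7.85 and 9.17 CPM in adipocytes, from 86 to 116 and from 118 to 212 expected counts. The groups did not overlap in CPM, but in TPM, at 2.38, 3.36 and 2.99 against 2.31, 3.94 and 6.44, adipocyte library 1 lay below all preadipocyte libraries. The log2 fold change was 0.89 (SE 0.23, adjusted p = 0.0062, edgeR's quasi-likelihood test). On the log2(TPM + 1) scale it was 0.35 and did not pass (adjusted p = 0.26, limma), and with libraries scaled by total counts it was 0.56 (adjusted p = 0.053, edgeR's quasi-likelihood test). Ccne2 shares 609 exon bases with Ints8 on the opposite strand, a gene with 473 to 870 expected counts per library.

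Both Cip/Kip genes passed the test, in opposite directions. Cdkn1a encodes p21, the inhibitor known as a target of p53, and lies at chr17:29090976-29100727 (plus strand). Its level was 123, 97.8 and 104 CPM in preadipocytes and 223, 180 and 188 CPM in adipocytes, and every adipocyte library was above every preadipocyte library. The mean rose from 108.0 ± 12.9 to 197.0 ± 22.9 CPM (SD, n = 3 each), a log2 fold change of 0.87 (SE 0.11, adjusted p = 0.00013, edgeR's quasi-likelihood test). In TPM the rise was smaller, from 129, 112 and 118 to 161, 133 and 143, a factor of 1.22 against 1.82 in CPM. On the log2(TPM + 1) scale it was 0.28 (adjusted p = 0.021, limma).

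Cdkn1b encodes p27, the inhibitor that builds up in resting cells largely through protein stability (chr6:134920401-134925513, plus strand). Its level was 146, 170 and 168 CPM in preadipocytes and 46.0, 58.4 and 57.9 CPM in adipocytes, and the groups were well apart. The mean fell from 161.3 ± 13.7 to 54.1 ± 7.002 CPM (SD, n = 3 each), a log2 fold change of -1.58 (SE 0.11, adjusted p = 2.01e-06, edgeR's quasi-likelihood test), or 2.98-fold. No annotated exon on the opposite strand overlaps Cdkn1b or the INK4 genes.

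Of the 3 INK4 genes, the neighbours Cdkn2a and Cdkn2b fell and Cdkn2c rose. Cdkn2a yields p16INK4a and, from another first exon and reading frame, p19Arf, which restrains MDM2 (chr4:89274471-89294653, minus strand). Its level was 302, 235 and 255 CPM in preadipocytes and 159, 122 and 113 CPM in adipocytes, and in each group library 1 was the highest without any overlap between the groups. The mean fell from 264.1 ± 34.5 to 131.6 ± 24.3 CPM (SD, n = 3 each), a log2 fold change of -1.005 (SE 0.14, adjusted p = 0.00021, edgeR's quasi-likelihood test). On the log2(TPM + 1) scale the difference was -1.54.

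Cdkn2b encodes p15INK4b, an inhibitor known for its response to transforming growth factor beta (chr4:89306299-89311039, minus strand). It stood at 104, 98.4 and 99.5 CPM in preadipocytes and 28.5, 26.8 and 25.7 CPM in adipocytes, and the libraries of each group lay close together. The log2 fold change was -1.90 (SE 0.08, adjusted p = 5.47e-08, edgeR's quasi-likelihood test), or 3.73-fold lower in CPM and 5.35-fold lower in TPM.

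Cdkn2c encodes p18INK4c, an INK4 protein linked with terminal differentiation (chr4:109660876-109667189, minus strand). Its level was 54.8, 57.7 and 57.9 CPM in preadipocytes and 388, 432 and 394 CPM in adipocytes, so every adipocyte library was several times above any preadipocyte library. The mean rose from 56.8 ± 1.72 to 404.5 ± 23.8 CPM (SD, n = 3 each), a log2 fold change of 2.83 (SE 0.08, adjusted p = 8.41e-09, edgeR's quasi-likelihood test), or 7.12-fold. Across the 10 genes, the CPM of the groups did not overlap for 9, all but Ccnd3, where 76.5% of all tested genes showed no overlap.

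Cdkn2a and Cdkn2c each have 2 annotated transcripts, and the deposited gene lengths, which are abundance-weighted means over transcripts, give the share of each. These shares were worked out after the files had been looked at, rest on the authors' assignment of shared exons to transcripts, and were not tested. Cdkn2a-201, the 852-base p16INK4a transcript that starts after the second sequence above, made up 62.9%, 63.2% and 64.2% of Cdkn2a in preadipocytes and 55.2%, 57.5% and 52.1% in adipocytes. Its level went from 438.4 ± 37.1 to 131.5 ± 23.2 TPM (SD, n = 3 each), 3.33-fold lower. Cdkn2a-202, the 895-base p19Arf transcript that starts after the first sequence, went from 252.7 ± 24.7 to 107.5 ± 16.8 TPM, 2.35-fold lower. Thus both transcripts were lower in adipocytes, and the p19Arf share was higher in each adipocyte library than in any preadipocyte library. For Cdkn2c the mix was similar in both states: Cdkn2c-201, which starts after the printed Cdkn2c sequence, made up 81.8% ± 1.597 in preadipocytes and 83.7% ± 1.0001 in adipocytes. Cdkn2c-201 went from 72.2 ± 7.40 to 373.1 ± 33.0 TPM, 5.17-fold, and Cdkn2c-202 from 15.9 ± 0.594 to 72.7 ± 2.73 TPM, 4.56-fold.

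**Figure D3:**
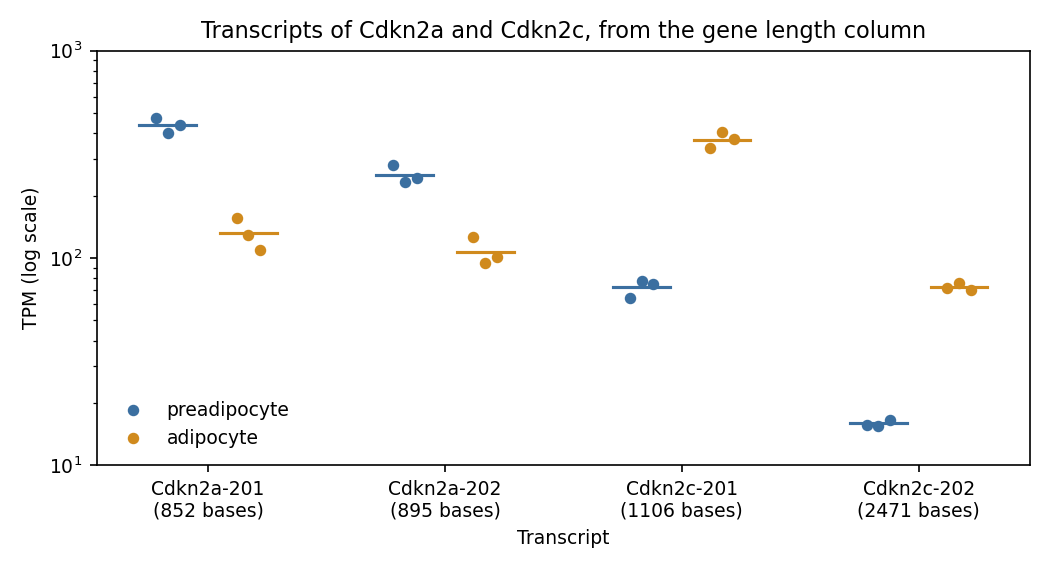
TPM of the 2 annotated transcripts of Cdkn2a and of Cdkn2c in each library on a log axis, with blue points for preadipocytes, orange points for adipocytes and lines for the group means. Both Cdkn2a transcripts are lower in all 3 adipocyte libraries and both Cdkn2c transcripts are higher, with Cdkn2a-201 at 400.8 to 475.0 TPM in preadipocytes and 109.8 to 156.0 TPM in adipocytes.

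Levels between genes were compared in TPM only. In preadipocytes the order ran from Cdkn2a (691 TPM) through Ccnd3 (174 TPM) and Cdkn2b (151 TPM) to Ccnd1, Cdkn1a and Ccnd2, at means of 130.8, 119.6 and 116.6 TPM. The range of Cdkn1a overlapped those of Ccnd1, Ccnd2 and Cdkn1b, while Ccnd1 lay above Ccnd2 in every preadipocyte library. Cdkn1b and Cdkn2c followed with overlapping ranges at 101.3 and 88.1 TPM, and Ccne1 and Ccne2 came last. In adipocytes Cdkn2c (446 TPM) and Ccnd2 (384 TPM) led with overlapping ranges, ahead of Cdkn2a (239 TPM), and Cdkn1a (146 TPM) and Ccnd3 (126 TPM) overlapped as the next pair. Cdkn2b (28.3 TPM) overlapped Cdkn1b (26.4 TPM), Ccne1 stood at 17.9 TPM, and Ccnd1 (4.41 TPM) overlapped Ccne2 (4.23 TPM) at the bottom.

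The summed TPM of the D-type cyclins was 424, 409 and 432 in preadipocytes and 508, 503 and 534 in adipocytes, while their mix differed widely. Ccnd1 gave 29.8%, 31.8% and 31.6% of that sum in preadipocytes and 0.954%, 0.905% and 0.718% in adipocytes. Ccnd2 gave 27.7% ± 0.824 and 74.5% ± 3.38, and Ccnd3 41.3% ± 1.85 and 24.6% ± 3.27 (SD, n = 3 each). Ccnd3 thus held the highest share in each preadipocyte library and Ccnd2 in each adipocyte library; in expected counts Ccnd2 led in both states, at 45.6% and 89.4%. Within the INK4 sum, where Cdkn2a includes its p19Arf transcript, Cdkn2a gave 74.2% ± 2.35 in preadipocytes and 33.5% ± 4.89 in adipocytes, Cdkn2b 16.3% ± 1.05 and 3.97% ± 0.105, and Cdkn2c 9.52% ± 1.30 and 62.6% ± 4.94. These shares are values within a library, do not depend on scaling between libraries, and were not tested.

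**Figure D4:**
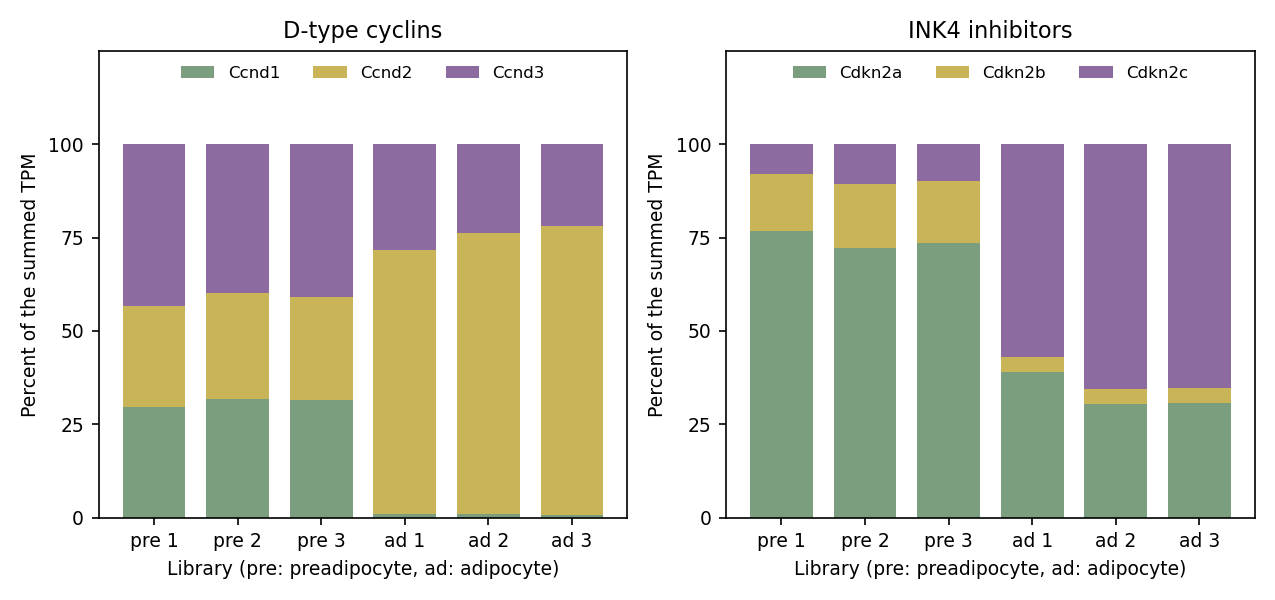
Stacked shares of each gene in the summed TPM of the D-type cyclins (left) and the INK4 inhibitors (right), in percent, for each of the 6 libraries. Ccnd2 takes 70.8% to 77.5% of the D-type sum in adipocytes, and the leading INK4 gene is Cdkn2a in preadipocytes and Cdkn2c in adipocytes.

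Summed over families, INK4 transcripts stood at 930.3 ± 52.9 TPM in preadipocytes and 713.0 ± 24.96 TPM in adipocytes, Cip/Kip transcripts at 220.9 ± 6.62 and 172.0 ± 9.98 TPM, and E-type transcripts at 13.1 ± 0.248 and 22.1 ± 2.49 TPM (SD, n = 3 each). The 5 inhibitors together were 2.65 ± 0.0815 times the 5 cyclins in preadipocytes and 1.65 ± 0.102 times in adipocytes. Both the INK4 and the inhibitor sums include the p19Arf transcript Cdkn2a-202, at 252.7 TPM in preadipocytes and 107.5 TPM in adipocytes. Inhibitor transcripts exceeded cyclin transcripts in every library on this scale and by less in adipocytes; in expected counts, which are not corrected for length, the ratio was below 1 in both states, at 0.898 and 0.460, and again lower in adipocytes.

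Ratios between genes of like role were compared within each library on the log2(TPM + 0.1) scale, for 4 pairs. The log2 ratio of Ccnd2 to Ccnd1 was -0.16 ± 0.02 in preadipocytes and 6.42 ± 0.27 in adipocytes, and that of Ccnd3 to Ccnd1 was 0.41 ± 0.11 and 4.81 ± 0.11. The log2 ratio of Cdkn1b to Cdkn1a was -0.25 ± 0.33 and -2.46 ± 0.37. For these 3 pairs the libraries of the groups did not overlap, with p = 0.10 (adjusted p = 0.13 over the 4 pairs) by a two-sided exact permutation test. That test did not match libraries by number, and 0.10 is then the smallest p that 3 against 3 allows. For Ccne2 to Ccne1 the ratio was -1.79 ± 0.29 and -2.17 ± 0.72, with an exact permutation p of 0.70.

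Of the kinases that the proteins of these genes bind, Cdk4 fell and Cdk2 and Cdk6 did not pass the test. Cdk4, the partner of D-type cyclins, went from 278.3 ± 24.4 to 136.2 ± 16.7 CPM (SD, n = 3 each), a log2 fold change of -1.03 (SE 0.11, adjusted p = 2.79e-05, edgeR's quasi-likelihood test), and was at -1.85 by limma on log2(TPM + 0.1). Cdk6, its relative, had a log2 fold change of 0.19 (adjusted p = 0.37) and Cdk2, the partner of E-type cyclins, one of 0.15 (adjusted p = 0.12), both by edgeR's quasi-likelihood test. Both passed as slightly higher with library number as a block, at 0.19 (adjusted p = 0.0073) and 0.15 (adjusted p = 0.0495), by the same test. So did Cdk6 without adipocyte library 1 (0.36, adjusted p = 0.047) and Cdk2 with RLE factors (0.21, adjusted p = 0.049), again by edgeR's quasi-likelihood test. By limma on log2(TPM + 1) Cdk2 was lower instead (-0.36, adjusted p = 0.0067). In TPM the sum of Cdk4 and Cdk6 was 527.0 ± 29.1 in preadipocytes and 153.2 ± 16.5 in adipocytes. INK4 transcripts were thus 1.77 ± 0.0184 times that sum in preadipocytes and 4.68 ± 0.412 times in adipocytes, and D-type cyclin transcripts 0.801 ± 0.0381 and 3.39 ± 0.426 times. The INK4 transcripts counted here include the p19Arf transcript Cdkn2a-202, at 252.7 TPM in preadipocytes and 107.5 TPM in adipocytes, so the ratios for p16INK4a, p15INK4b and p18INK4c alone are lower. Among all 6 genes of the G1 kinases and the CDK-activating kinase, 3 fell, led by Cdk4 and the assembly factor Mnat1 (-0.81), and none rose, with a median of -0.24; with the block 2 rose.

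Among relatives of the inhibitors, Cdkn2d, the remaining INK4 gene (p19INK4d), rose with a log2 fold change of 0.77 (SE 0.17, adjusted p = 0.0027, edgeR's quasi-likelihood test), from 7.39 ± 1.01 to 12.6 ± 2.52 CPM, and was at 0.23 by limma on log2(TPM + 1), where it did not pass (adjusted p = 0.15). Cdkn1c, the remaining Cip/Kip gene (p57), had 0 to 6 expected counts per library and was not tested. Of 6 tested genes among the other CDK inhibitors and inhibitory kinases, 4 rose and 2 fell, with a median of 0.67. The rises were led by Pkmyt1 (2.56), a kinase that restrains CDK1, and Cdk2ap2 (1.62), and the falls were in the phosphatase Cdkn3 (-1.38) and the CDK-inhibitory kinase Wee1 (-0.57).

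Genes for the turnover of these proteins were mixed, with 7 of 16 tested genes higher, 5 lower and 4 not past the threshold, and a median of 0.27. Skp2, the ubiquitin ligase subunit that sends p27 for destruction, fell by 2.29 on the log2 scale (SE 0.13, adjusted p = 4.86e-07, edgeR's quasi-likelihood test), and Dtl, which directs p21 to destruction in S phase, had a log2 fold change of -2.57. Thus Cdkn1b and Skp2 were both lower in adipocytes. The largest rises were in Fbxo31 (1.49), a ligase subunit for cyclin D1, and Ubac1 (1.37), part of a ligase for p27.

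Downstream of the G1 kinases, 5 of 12 tested pocket protein, E2F and DP genes rose and 5 fell, with a median of -0.04. The pocket protein gene Rbl2, named after its value had been seen, had a log2 fold change of -0.27 (adjusted p = 0.012, edgeR's quasi-likelihood test). Its mean went from 62.5 to 51.9 CPM and from 28.3 to 14.7 TPM. The retinoblastoma gene Rb1 rose from 11.96 ± 0.931 to 65.8 ± 12.2 CPM (SD, n = 3 each; log2 fold change 2.46), and in TPM from 7.80 ± 0.601 to 22.4 ± 5.37 (1.39 by limma on log2(TPM + 1)), with its relative Rbl1 at 0.81 (0.26 and not past the threshold by limma on log2(TPM + 1)), and the repressor E2F genes E2f7 and E2f8 fell, at -4.25 and -3.32 (-0.92 and -1.07 by limma on log2(TPM + 1), with both genes at most at 1.47 TPM). Of 20 E2F target genes of S phase entry, 16 fell, none rose and 4 did not pass, with a median of -1.69; Uhrf1 and Mcm5 led at -3.85 and -3.15. All 12 mitotic cyclin and proliferation genes fell, with a median of -2.35, led by Mki67 (-3.68) and Bub1 (-3.57). So Ccne1 and Ccne2, which were placed on neither list, rose while the E2F target and mitotic lists held no gene that rose. On the log2(TPM + 1) scale the rise of Ccne2 did not pass.

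Lists around the control of the 10 genes gave no single direction. Of 15 tested genes among p53 and its targets, to which Cdkn1a also belongs, 5 rose and 8 fell, with a median of -0.75; Gadd45a (1.61) and Bbc3 (1.05) rose most, and Plk2 (-4.49) and Eda2r (-3.75) fell most. Of 22 tested growth-signal regulators of D-type cyclins and Cip/Kip genes, 7 rose and 13 fell, with a median of -0.52. The fat cell factors Cebpa (5.10) and Pparg (3.90) rose most, and Klf4 (-3.02) and Ets1 (-2.04) fell most.

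Around the Cdkn2a-Cdkn2b locus, 5 of 14 tested regulators and neighbours rose and 6 fell, with a median of -0.25. The histone H3 demethylase gene Kdm6b (1.002) and the Polycomb gene Cbx8 (0.86, but 0.16 and not past the threshold by limma on log2(TPM + 1)) rose most, and the Polycomb genes Cbx7 (-1.17) and Kdm2b (-0.997) fell most; Cbx7 was at -0.56 with effective length offsets and did not pass. Mtap, the neighbour that encodes a methionine salvage enzyme, fell along with Cdkn2a and Cdkn2b, from 83.5 ± 0.560 to 42.9 ± 1.16 CPM (SD, n = 3 each; log2 fold change -0.96, adjusted p = 1.93e-06, edgeR's quasi-likelihood test); it was picked from that list after its value had been seen. Of 14 tested cyclins outside G1 control, 5 rose, led among genes of at least 1 CPM by Ccni (1.72) and Ccng2 (1.51), and 4 fell, led by Ccnf (-1.10) and Ccnt2 (-0.49), with a median of 0.14.

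**Figure D5:**
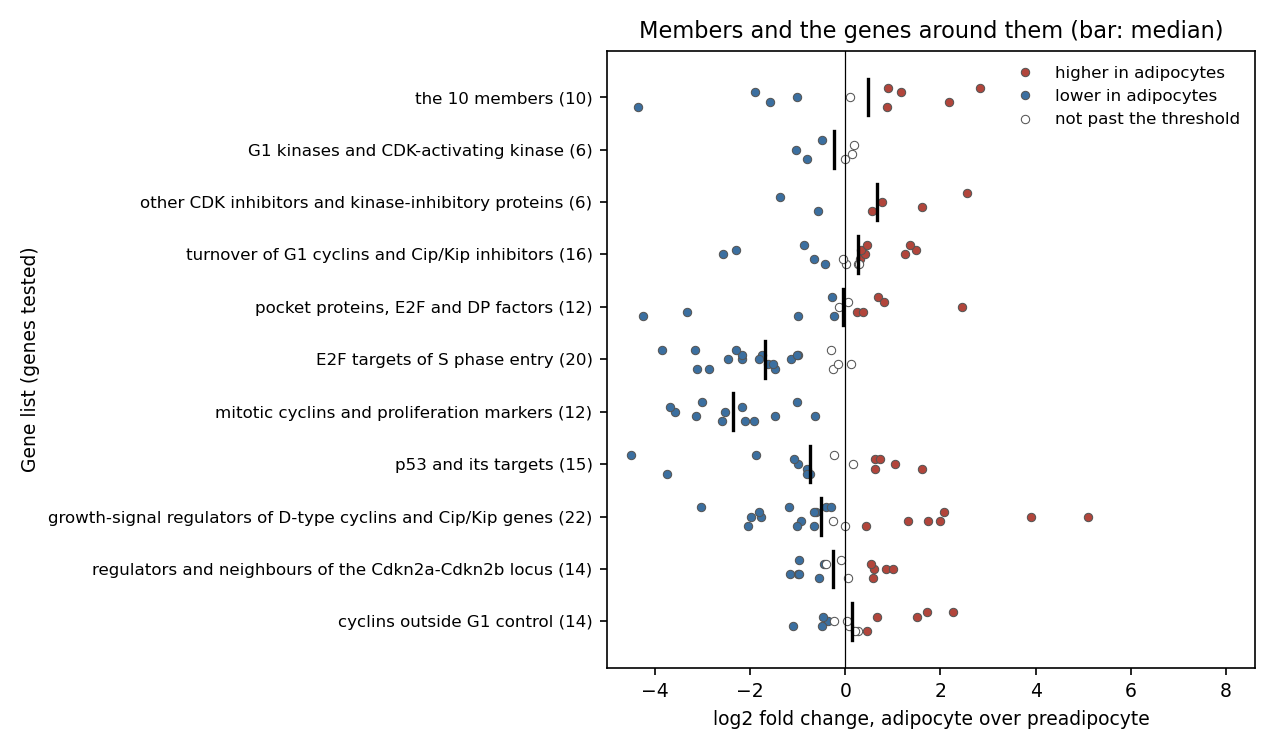
Log2 fold change, adipocyte over preadipocyte, of every tested gene of the lists, coloured by its call, with a vertical bar at each list's median. The 10 genes lie on both sides of 0 with a median of 0.49, while all 12 genes of the mitotic list lie to the left of 0 around a median of -2.35.

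Profiles were compared by the root mean square difference of centred log2(CPM + 1) over the 6 libraries, with clone names and accession-like symbols passed over. For the gene of each family with the highest mean TPM over all 6 libraries, the 3 remaining tested genes nearest in profile are given. For Ccnd2 these were Dcun1d3, Hspd1 and Gpcpd1, at 0.0529 to 0.0625, and for Ccne1 they were Nploc4, Tm2d2 and Zfhx2, at 0.0254 to 0.0311. Those nearest to Cdkn1a were Gsk3a, Dvl1 and Mus81, at 0.0229 to 0.0304, and those nearest to Cdkn2a were Sept5, Rpl37 and Raly, at 0.0178 to 0.0409. With 2 groups of 3 libraries, many genes share such a profile.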

How the data were processed

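Total RNA was sequenced from 3 libraries labelled 3T3-L1 preadipocyte and 3 labelled adipocyte, grouped by title and cell type. Per the submitters' processing notes the tools were RSEM, Bowtie, Bowtie2 and DESeq2 on GRCm38 (mm10); the sources used here do not give their roles, their versions or the use of strand. The deposited tables hold, per the file headers, RSEM expected counts and TPM per gene with gene lengths and effective lengths. TPM as deposited by the authors equalled the expected count over effective length, rescaled, within 1% for at least 99.99% of genes checked. Symbols and exons came from GENCODE M21, which matched 54723 of 54752 identifiers.

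Expected counts were rounded, filtered with filterByExpr by group, scaled by TMM and tested with edgeR 4.0.16 (quasi-likelihood, group only, Benjamini-Hochberg at 0.05 over 14726 genes) in R 4.3.3; CPM values use TMM library sizes. The procedure was tested on simulated counts in which few genes changed, as many up as down. That simulation cannot show how well TMM scaling holds in data where most genes pass the test. TMM factors were 1.11 to 1.13 in preadipocytes and 0.88 to 0.90 in adipocytes. No group held libraries that were the same within sampling noise: even preadipocyte libraries 2 and 3, the most alike, differed (chi-square over its degrees of freedom 2.99, 14400 genes). Same-numbered libraries deviated together (correlations of 0.659, 0.301 and 0.265). By the rule used, over 0.1 for every pair, the numbers count as pairs, although some unmatched numbers also correlated (up to 0.446). The main fit and the permutation test did not use these pairs, so their p-values and the main fit's intervals leave the pairing out. Only the replicate block among the alternatives uses it. Alternatives were RLE, upper-quartile and total-count scaling, DESeq2 1.42.0, limma 3.58.1 on log2(TPM + 1) and log2(TPM + 0.1), no low-count filter, a replicate block, effective length offsets and leaving out each library.

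The 10 genes and the gene lists were chosen with earlier results of these data known. The text names all 10 genes, the kinases Cdk2, Cdk4 and Cdk6, Cdkn2d and Cdkn1c. From each list it names the 2 largest called rises and falls whose higher group reached 1 CPM, from each marker list the most abundant gene, and the 3 profiles nearest to each family's gene of highest mean TPM over all 6 libraries.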

Additional observations from a re-analysis of the deposited data

How the results depend on the processing

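Of the 9 genes that passed the test, 8 kept direction and call under all 15 alternatives, and Ccne2 under 12. Ccne2 lost its call under total-count scaling (0.56) and in the limma fits to log2(TPM + 1) (0.35) and log2(TPM + 0.1) (0.42). Ccnd3 turned to -0.025 under upper-quartile scaling, -0.22 by total counts and -0.46 with both TPM settings, where it passed as lower; leaving out single libraries gave -0.0033 (without adipocyte library 1) to 0.25. Leaving out single libraries gave Ccne2 to Ccne1 ratio differences of -0.71 to 0.0054, the highest without adipocyte library 1. With total counts 4 of the 10 genes were higher and 4 lower, where 11395 of all 14726 tested genes passed. With the TPM settings the counts were 4 and 5, where 11594 (log2(TPM + 1)) and 11557 (log2(TPM + 0.1)) of 14726 passed. Other settings gave 5 and 4. There the genes that passed ran from 10145 of 14995 (without preadipocyte library 3) to 11975 of 14726 (replicate block), with 11806 of 26772 without the filter. The TPM settings called 3266 and 3248 genes higher over all genes. The cause of these moves was not tested.

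With the replicate block, which pairs equal library numbers, 5 of the 10 genes were higher and 4 lower, Ccnd3 was at 0.10 (adjusted p = 0.13, edgeR's quasi-likelihood test), and 5763 genes were higher and 6212 lower over all genes. The block changed no call among the 10 genes.

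Shares from expected counts, which are not corrected for length, were 33.3% and 0.709% for Ccnd1, 45.6% and 89.4% for Ccnd2 and 21.1% and 9.92% for Ccnd3 in preadipocytes and adipocytes, and inhibitors were 0.898 and 0.460 times the cyclins.

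Some counts of list genes moved by over 1.5 times. The TPM settings gave 5 G1 kinase genes lower and fewer genes higher: 2 other CDK inhibitors, 3 turnover genes, 2 pocket protein and E2F genes, 2 p53 genes, 1 locus gene and 3 cyclins outside G1, of which 7 were lower. Total counts gave 3 higher turnover, pocket protein and locus genes each, and 7 lower cyclins outside G1. Upper-quartile factors gave 3 higher pocket protein genes. Without the filter, or without adipocyte library 2, 3 pocket protein and E2F genes were lower. Higher G1 kinase genes numbered 1 with RLE factors or without adipocyte library 1 and 2 with the block.

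Depth limits Ccne2 most, with 86 to 212 expected counts per library.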

Other observations

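Mdm2, the p53 ubiquitin ligase that p19Arf restrains, was among the most abundant transcripts of these cells. Its level was 2213.4, 2586.1 and 2457.8 TPM in preadipocytes and 1512.6, 1709.4 and 2033.2 TPM in adipocytes, and it ranked between 36 and 63 by TPM in the 6 libraries. Its log2 fold change was 0.16 and did not pass the test (adjusted p = 0.18, edgeR's quasi-likelihood test); it was 0.15 with the replicate block (adjusted p = 0.036) and 0.25 without adipocyte library 1 (adjusted p = 0.025), by the same test, and -0.47 by limma on log2(TPM + 1) (adjusted p = 0.010). Slc35e3, the next protein-coding gene on the same strand of chromosome 10, stood at 779 to 919 TPM in preadipocytes and 930 to 1055 TPM in adipocytes. The other 3 protein-coding genes within 200 kb were far lower: Cpm at 0.34 to 3.08 TPM, Nup107 at 5.34 to 20.9 TPM and Rap1b at 34.8 to 88.2 TPM. The region was looked at after the level of Mdm2 had been seen.

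Trp53, which encodes p53, fell from 63.4 ± 5.03 to 32.0 ± 2.97 CPM (SD, n = 3 each; log2 fold change -0.99, adjusted p = 1.85e-05, edgeR's quasi-likelihood test). Myc rose from 8.21 ± 1.48 to 32.7 ± 1.94 CPM (log2 fold change 1.99) and Foxo1, a forkhead factor known to bind the Cdkn1a and Cdkn1b genes' control regions, from 21.4 ± 1.98 to 89.8 ± 3.86 CPM (2.07), by the same test. These 3 genes and the Mdm2 region were picked after their values had been seen.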
